A study of Mus musculus with 6 samples.

Results

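The bone morphogenetic protein (BMP), activin and transforming growth factor beta (TGF-beta) pathway was examined in the neocortex of newborn mice that had lost the transcription factor Tcf4 from the cortical lineage. Its genes were taken by name from the deposited expression table: the Bmp, Gdf, inhibin and TGF-beta ligands, their receptors, the Smad proteins, follistatin and its relatives, the latent TGF-beta binding proteins, the Smurf ligases, and Nog, Chrd, Bambi, Bmper and Grem1. This gave 49 genes of the 15703 in the table. The Id genes, well-known targets of BMP signalling, are not among them and are described at the end with other genes of the pathway. Of 65 protein-coding names in the annotation that fit the same patterns, 16 were not among the listed genes: Bmp4, Bmp5, Bmp6, Bmp8a, Bmp8b, Bmp10, Bmp15, Gdf1, Gdf2, Gdf3, Gdf6, Gdf7, Gdf15, Inhbc, Inhbe and Fstl3.

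The tested animals were 3 conditional knockouts (cKO), with the labelled genotype Tcf4 f/f; Emx1Cre/+, and the controls were 3 mice labelled WT, for which no floxed or Cre allele is named. All were C57BL/6 at postnatal day 0, and RNA of the neocortex was sequenced. Emx1-driven Cre acts in dorsal progenitors, which give rise to cortical excitatory neurons and much of the glia, so interneurons, microglia and vessels in the same tissue keep their Tcf4 alleles. The study asked how expression changes once Tcf4 is lost. The libraries are called cKO 1 to cKO 3 and WT 1 to WT 3 after their labelled replicate numbers. That each came from a separate animal is inferred from the different codes in their titles, which do not say what the codes stand for.

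Values are FPKM, fragments scaled to exon length and to library size, so levels can be compared between genes. Calls rest on limma's moderated test on log2(FPKM + 1), with a Benjamini-Hochberg adjusted p under 0.05 over all 15703 genes. Fold changes are ratios of mean FPKM, cKO against WT. Log2 changes are on the log2(FPKM + 1) scale, which understates the change of low genes. Tcf4 itself was at 56.5, 60.6 and 55.3 FPKM in cKO 1, 2 and 3, against 71.2, 75.6 and 75.3 FPKM in WT 1, 2 and 3. The value covers all exons and all cells of the tissue. The cortical markers Emx1 and Neurod6 were present in all 6 libraries, with means of 9.81 and 351 FPKM in cKO and 12.5 and 296 FPKM in WT. Reads in listed genes, recovered from the FPKM steps and approximate, numbered 25.5 to 26.7 M in cKO and 25.3 to 28.8 M in WT. The library sizes recovered with them were smaller, at 23.2 to 24.3 M in cKO and 23.4 to 26.1 M in WT. The sums and the sizes therefore cannot both be exact, and the reason was not tested. By Xist and Y-linked genes, each genotype held 2 female and 1 male library. WT 3 stood apart on the second principal component, and its long genes were low against its short ones (a log2 difference of −0.10, against −0.043 to 0.063 in the other 5 libraries).

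Ligands of this superfamily are secreted dimers that bring together type I and type II receptor kinases. BMP receptors phosphorylate Smad1, Smad5 and Smad9, activin and TGF-beta receptors phosphorylate Smad2 and Smad3, and both sets enter the nucleus with Smad4. Secreted antagonists such as noggin, gremlin and follistatin bind the ligands outside the cell. In the forebrain the pathway is known for its parts in dorsal patterning, in the choice between neuronal and glial fates and in glial maturation.

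In cKO neocortex, follistatin and the ligand gene Gdf10 were 17.5-fold and 6.39-fold lower than in WT, and the other called changes in the pathway were between 1.20-fold and 3.09-fold. The activin subunits Inhba and Inhbb fell, as did the BMP antagonist Grem1 and the BMP receptor gene Acvr1, while Bmp3, the antagonist Nog, the receptor gene Bmpr1b, Ltbp3 and Smad1 rose. Of the 49 members, 5 were called higher, 10 lower and 34 did not pass. That is 30.6% called, against 15.8% of all genes tested (7.22% higher and 8.59% lower). The median log2 change was 0.013 over the members and 0.0017 over all genes, and the median absolute change was 0.19 and 0.13. The cKO and WT libraries did not overlap in 27 members, 13 with cKO above WT and 14 with cKO below WT, against 18.5% and 18.7% of all genes. Leaving out each library in turn, 7 of the 15 calls held every time: Fst, Gdf10, Acvr1, Grem1, Fstl4 and Fstl1 among those that fell and Bmp3 among those that rose. In bulk tissue, fewer cells of a type and less RNA per cell cannot be told apart.

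**Figure D1:**
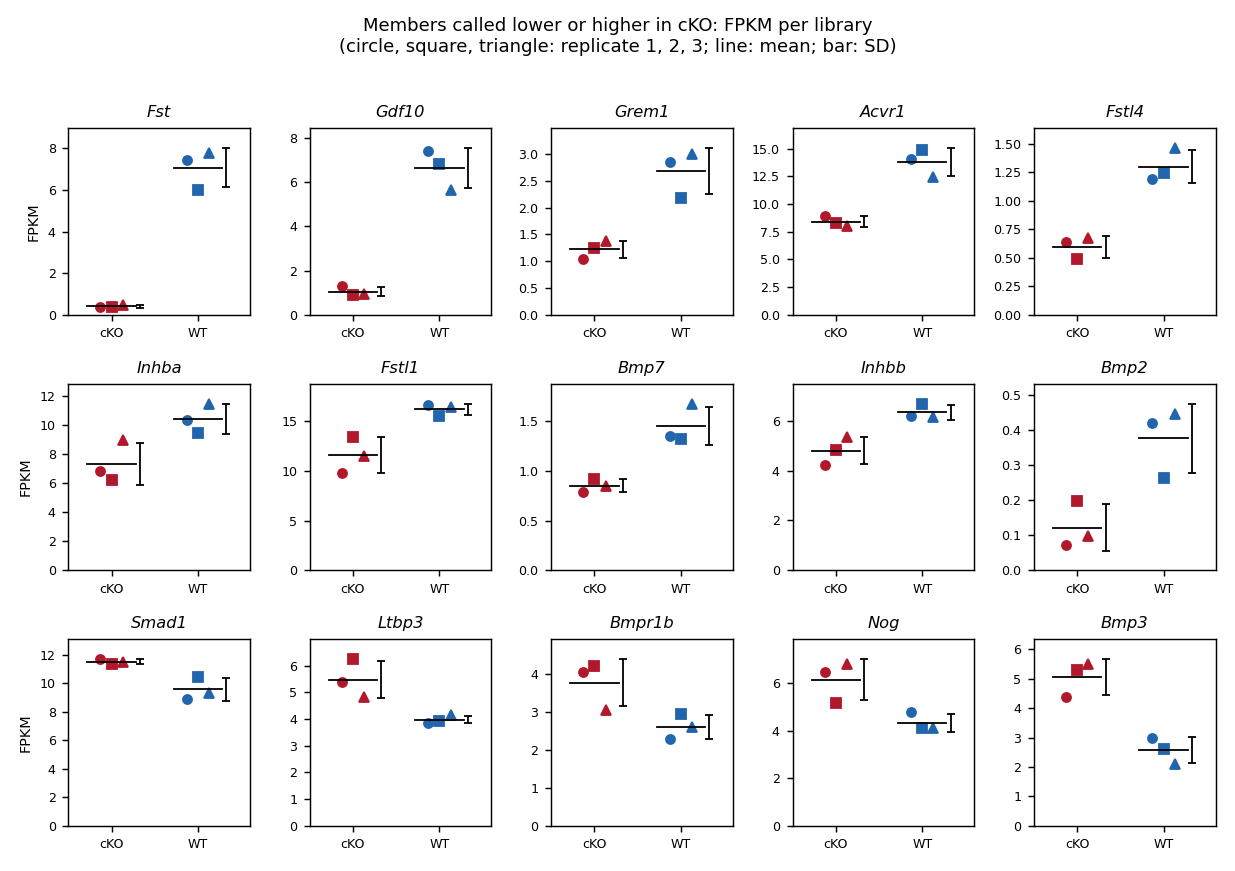
FPKM in each of the 3 cKO and 3 WT libraries for the 15 pathway genes called lower (first 10 panels) or higher (last 5 panels) in cKO, with group means as lines and SD as bars; all axes start at 0. Fst lies at 0.362 to 0.480 FPKM in cKO and 5.99 to 7.76 FPKM in WT, and in none of the 15 panels do the groups overlap.

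Follistatin (Fst, ENSMUSG00000021765, mm10 chr13:114452290-114458951, minus strand) is a secreted protein that binds and neutralises activin. It was at 0.362, 0.370 and 0.480 FPKM in cKO 1, 2 and 3, against 7.44, 5.99 and 7.76 FPKM in WT 1, 2 and 3. Every cKO library was far below every WT library. These levels correspond to about 39, 41 and 51 reads in cKO and 891, 645 and 834 reads in WT. The log2 change was −2.52 (SE 0.103, limma adjusted p = 8.83e-07), and the largest adjusted p with a library left out was 2.8e-05, without cKO 1. An antisense gene shares 2.51% of the exon length of Fst. By mean level Fst ranked 45 of the 49 members in cKO and 16 in WT.

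The activin subunits fell much less than their antagonist. Inhba, which encodes the beta A subunit of activin A, was at 6.81, 6.19 and 8.96 FPKM in cKO, against 10.4, 9.42 and 11.4 FPKM in WT. The groups did not overlap, but the gap between the highest cKO and the lowest WT library was narrow. Its mean was 1.42-fold lower (log2 change −0.47, SE 0.118, limma adjusted p = 0.0261). Inhbb, the beta B subunit, was at 4.24, 4.83 and 5.34 FPKM in cKO, against 6.18, 6.68 and 6.16 FPKM in WT, 1.32-fold lower (limma adjusted p = 0.0261). Both calls were lost without 4 libraries: that of Inhba without WT 1, WT 3, cKO 1 or cKO 2 and that of Inhbb without WT 1, WT 2, cKO 1 or cKO 2, and the highest adjusted p, both without cKO 1, were 0.0982 and 0.0931.

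Within each library, the ratio of Fst to Inhba was 0.0532, 0.0598 and 0.0536 in cKO 1, 2 and 3, against 0.719, 0.636 and 0.678 in WT 1, 2 and 3. The ratio was lower in every cKO library and varied little within a group. An exact two-sided permutation test over the 6 libraries gave p = 0.1, the smallest that 3 against 3 allows. The ratio of Inhba to Inhbb overlapped between the groups, at 1.52 ± 0.209 in cKO and 1.65 ± 0.226 in WT (SD, n = 3 each; exact permutation p = 0.6). In all, 6 ratios were computed, chosen after the members' values were seen, and over these 6 the adjusted p was 0.12 where the raw p was 0.1.

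**Figure D2:**
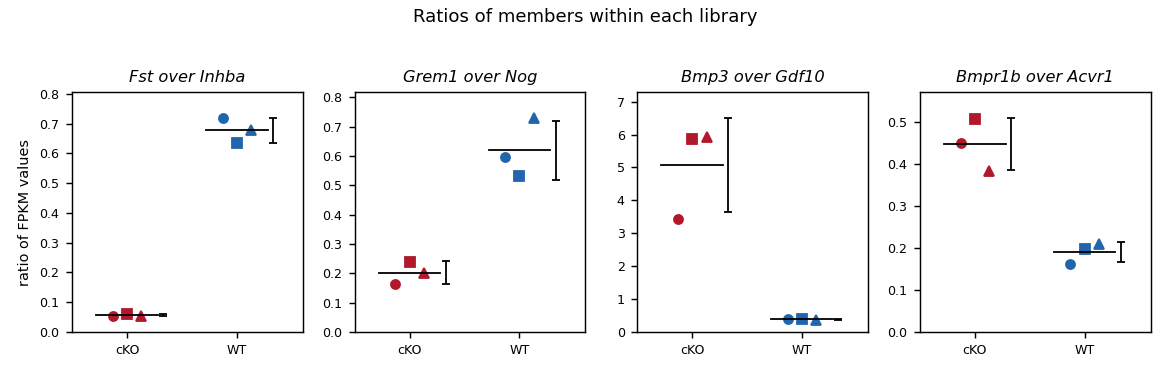
Ratio of the FPKM values of a pair of genes within each library, for Fst over Inhba, Grem1 over Nog, Bmp3 over Gdf10 and Bmpr1b over Acvr1, with group means as lines and SD as bars. The first pair of panels is lower in all 3 cKO libraries than in all 3 WT libraries, and the last pair is higher. For all but Fst over Inhba, the genes of a pair changed in opposite directions without overlap, which fixes this separation.

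Among the 7 BMP and GDF ligands listed, 3 fell, 1 rose and 3 did not pass. Gdf10 (ENSMUSG00000021943, mm10 chr14:33923587-33937983, plus strand) encodes a BMP3-related ligand. It was at 1.28, 0.903 and 0.929 FPKM in cKO, against 7.41, 6.83 and 5.65 FPKM in WT. No cKO library came near the WT range, and about 112 to 158 reads stood behind each cKO value, against 690 to 1007 in WT. The log2 change was −1.90 (SE 0.112, limma adjusted p = 6.26e-06). Gdf10 ranked 36 of the 49 members by mean level in cKO and 17 in WT.

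Bmp3, the closest relative of Gdf10 and a BMP that acts against the osteogenic BMPs in bone, went the other way. It was at 4.38, 5.29 and 5.52 FPKM in cKO, against 2.99, 2.62 and 2.12 FPKM in WT. All 3 cKO libraries were above all 3 WT libraries, a 1.97-fold higher mean (log2 change 0.76, SE 0.112, limma adjusted p = 0.00175). The largest adjusted p with a library left out was 0.00884, without cKO 2. The ratio of Bmp3 to Gdf10 was 3.42, 5.86 and 5.94 in cKO, against 0.403, 0.384 and 0.375 in WT, so that Gdf10 was the more abundant of the pair in WT and Bmp3 in cKO. Both genes separated the groups, in opposite directions, so the ratio had to separate them too. Its exact permutation p (0.1, the smallest possible) was fixed in advance and adds no support.

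The other called ligands were low. Bmp7, a BMP expressed in the meninges and choroid plexus as well as in neural tissue, was at 0.789, 0.921 and 0.848 FPKM in cKO, against 1.36, 1.32 and 1.68 FPKM in WT (1.70-fold lower, limma adjusted p = 0.0119). Its call was lost without cKO 1 (adjusted p = 0.0509). Bmp2, at 0.071, 0.197 and 0.097 FPKM in cKO against 0.421, 0.263 and 0.444 FPKM in WT, had the lowest mean of the members in cKO. Its 3.09-fold decrease (limma adjusted p = 0.0225) rested on about 6, 17 and 8 reads in cKO and 39, 22 and 37 in WT, and its call was lost without WT 1, WT 3, cKO 1 or cKO 3 (at most 0.0895, without cKO 1).

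The remaining ligands did not pass. Gdf11, which regulates the number and timing of neurons formed in several neural tissues, was the most abundant BMP or GDF ligand in cKO, at 5.71 ± 0.0729 FPKM, against 5.21 ± 0.557 FPKM in WT (SD, n = 3 each), and the 95% interval of its log2 change was −0.069 to 0.30. Gdf5, with 40.3% of its exon length shared with a gene on the opposite strand, was at 1.02 to 1.47 FPKM in cKO and 0.991 to 1.03 FPKM in WT. Gdf9, known from the oocyte, was at 0.791 to 1.28 FPKM in cKO and 0.964 to 1.41 FPKM in WT. None of the 3 TGF-beta ligands passed in limma or in limma-voom on the recovered reads, and 1 had an unadjusted p under 0.05. Tgfb2 was the most abundant, at 3.16, 4.23 and 3.30 FPKM in cKO against 4.95, 4.08 and 4.25 FPKM in WT (95% interval of the log2 change −0.49 to −0.017, limma adjusted p = 0.131), and the groups overlapped. Tgfb3 was at 1.86 ± 0.185 FPKM in cKO and 2.02 ± 0.200 FPKM in WT, and Tgfb1 at 0.517 ± 0.0806 FPKM in cKO and 0.561 ± 0.0565 FPKM in WT (SD, n = 3 each).

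The latent TGF-beta binding proteins hold TGF-beta in the matrix in an inactive complex. Of the 4, Ltbp3 rose and the other three did not pass. Ltbp3 was at 5.37, 6.24 and 4.83 FPKM in cKO, against 3.87, 3.93 and 4.15 FPKM in WT. The groups were separate, with a wider spread in cKO, and the mean was 1.38-fold higher (limma adjusted p = 0.0226). The call was lost without WT 1, cKO 1 or cKO 2, and the highest adjusted p was 0.0956, without cKO 2. Ltbp4 was at 8.89, 7.01 and 6.93 FPKM in cKO, against 6.44, 5.88 and 5.51 FPKM in WT. Its libraries did not overlap, but it did not pass (limma adjusted p = 0.0625). It passed with the reads recovered from the FPKM values (limma-voom adjusted p = 0.0237). Ltbp1 and Ltbp2 were below 1 FPKM in each group.

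Of the 8 secreted antagonists and follistatin relatives, 4 fell, 1 rose and 3 did not pass. Beside Fst, Grem1 fell, which encodes gremlin, a BMP antagonist. Grem1 was at 1.05, 1.24 and 1.37 FPKM in cKO, against 2.85, 2.19 and 2.99 FPKM in WT. Every cKO library was below every WT library, a 2.19-fold lower mean (log2 change −0.72, SE 0.108, limma adjusted p = 0.00190). Noggin (Nog), a BMP antagonist as well, was at 6.46, 5.17 and 6.80 FPKM in cKO, against 4.78, 4.12 and 4.10 FPKM in WT, 1.42-fold higher (log2 change 0.42, SE 0.102, limma adjusted p = 0.0223). Its call was lost without WT 3, cKO 1 or cKO 3 (adjusted p of up to 0.0878, without cKO 1).

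The ratio of Grem1 to Nog was 0.162, 0.240 and 0.202 in cKO 1, 2 and 3, against 0.596, 0.531 and 0.729 in WT 1, 2 and 3. Noggin was thus the more abundant of this pair of BMP antagonists in each of the 6 libraries, by a wider margin in cKO. Every cKO library was below WT for Grem1 and above WT for Nog, so the separation of the ratio was fixed in advance. Its exact permutation p (0.1, the smallest possible) adds no support. Chordin (Chrd) and Bmper, further extracellular BMP-binding proteins, did not pass. Chrd was at 2.53 ± 0.164 FPKM in cKO and 2.26 ± 0.370 FPKM in WT, and Bmper at 1.64 ± 0.178 FPKM in cKO and 1.66 ± 0.221 FPKM in WT (SD, n = 3 each).

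The follistatin-like genes differed among themselves. Fstl1, the most abundant gene of this group, encodes a secreted glycoprotein reported to bind BMP4 in the lung. It was at 9.79, 13.4 and 11.4 FPKM in cKO, against 16.6, 15.5 and 16.4 FPKM in WT, with cKO 1 the lowest library (1.40-fold lower, log2 change −0.46, limma adjusted p = 0.0118, and 0.0492 without WT 1). Fstl4 was at 0.637, 0.488 and 0.670 FPKM in cKO, against 1.19, 1.24 and 1.46 FPKM in WT, on about 52 to 68 reads in cKO and 128 to 150 in WT (2.17-fold lower, limma adjusted p = 0.00266). Fstl5 did not pass, at 6.23 ± 0.821 FPKM in cKO and 6.03 ± 0.696 FPKM in WT (SD, n = 3 each).

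Promoter windows, from 250 bases before to 50 bases after the annotated start (RefSeq, GRCm38.p6), were matched by symbol for 34 of the 49 members and for 10 of the 15 called ones. The table used held no entry for Fst. Tcf4 is an E-protein, a class of basic helix-loop-helix factor that binds E-boxes (CANNTG), so the 3 called members with an entry and a change of at least 2-fold are shown. Capitals mark CANNTG and GGCGCC, a GC-rich element known from BMP-responsive genes, each read on both strands.
Gdf10: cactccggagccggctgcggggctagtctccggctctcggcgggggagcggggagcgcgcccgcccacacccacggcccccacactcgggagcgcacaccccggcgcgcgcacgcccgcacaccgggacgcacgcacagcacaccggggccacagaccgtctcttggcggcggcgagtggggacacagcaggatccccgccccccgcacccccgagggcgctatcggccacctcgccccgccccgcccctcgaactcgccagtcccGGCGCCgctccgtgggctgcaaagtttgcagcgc
Grem1: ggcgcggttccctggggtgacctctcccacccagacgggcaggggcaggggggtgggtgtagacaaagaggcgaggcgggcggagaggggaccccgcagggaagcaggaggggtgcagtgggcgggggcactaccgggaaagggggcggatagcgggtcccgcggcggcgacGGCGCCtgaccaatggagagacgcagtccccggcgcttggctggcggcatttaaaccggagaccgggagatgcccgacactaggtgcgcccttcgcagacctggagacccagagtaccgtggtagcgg
Fstl4: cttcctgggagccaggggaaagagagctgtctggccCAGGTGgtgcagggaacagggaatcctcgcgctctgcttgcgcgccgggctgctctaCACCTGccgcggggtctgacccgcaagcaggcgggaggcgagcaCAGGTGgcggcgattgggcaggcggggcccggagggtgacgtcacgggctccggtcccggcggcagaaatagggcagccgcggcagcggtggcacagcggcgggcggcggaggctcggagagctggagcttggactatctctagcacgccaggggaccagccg

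These windows lie at chr14:33923337-33923636 on the plus strand (Gdf10), chr2:113758599-113758898 on the minus strand (Grem1) and chr11:52764456-52764755 on the plus strand (Fstl4). The Fstl4 window held 3 E-boxes, all CAGGTG or its reverse complement, and no GC-rich element. The windows of Gdf10 and Grem1 held no E-box of any kind and 1 GC-rich element each. Over all 32851 windows in the table, 72.3% held at least 1 E-box, 20.2% held the form seen in Fstl4, 11.9% held the GC-rich element, and 0.365% held 3 or more copies of the Fstl4 form. Of the 44 windows of members, 23 held an E-box, 6 held the Fstl4 form and 14 held the GC-rich element. These windows belong to 34 members, and some windows of a gene overlap, as in Ltbp4 and Smad5. A match can therefore count more than once, and base composition was not taken into account. The Fstl4 form is 1 of the sequences that the general E-box covers, and a match describes the letters only.

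**Figure D3:**
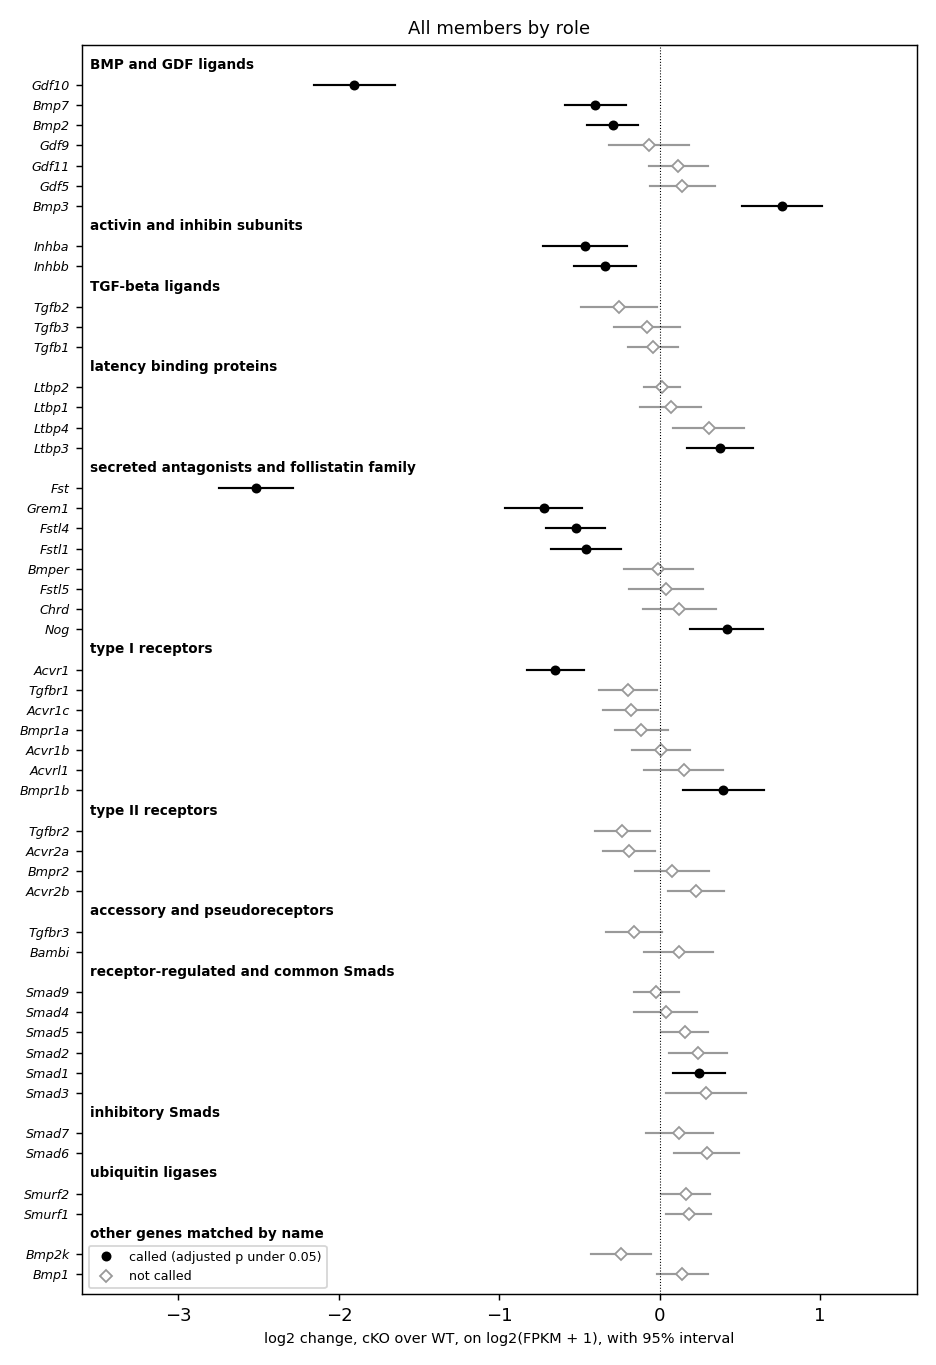
Log2 change of each of the 49 members, cKO over WT, on the log2(FPKM + 1) scale with its 95% interval, grouped by role; filled black circles were called and open grey diamonds were not. Fst and Gdf10 lie at −2.52 and −1.90, and all other members between −0.72 (Grem1) and 0.76 (Bmp3).

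Among the 7 type I receptors, 1 fell, 1 rose and 5 did not pass. Acvr1 (ENSMUSG00000026836, mm10 chr2:58388644-58567157, minus strand), a type I receptor for BMPs, was at 8.97, 8.28 and 7.99 FPKM in cKO, against 14.1, 14.9 and 12.4 FPKM in WT. All cKO libraries lay below all WT libraries, a 1.64-fold lower mean (log2 change −0.65, SE 0.0808, limma adjusted p = 0.000718). Bmpr1b, a further type I receptor for BMPs and GDFs, was at 4.03, 4.20 and 3.05 FPKM in cKO, against 2.29, 2.93 and 2.60 FPKM in WT, and cKO 3 was close to WT 2. Its mean was 1.44-fold higher (log2 change 0.40, SE 0.114, limma adjusted p = 0.0411), and the call was lost without WT 1, WT 3, cKO 1 or cKO 2 (adjusted p of up to 0.143, without cKO 2).

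Bmpr1a, the most abundant of the 3 BMP type I receptors, did not pass. It was at 12.6, 15.1 and 14.2 FPKM in cKO, against 15.1, 15.2 and 15.3 FPKM in WT (95% interval of the log2 change −0.28 to 0.048). The ratio of Bmpr1b to Acvr1 was 0.450, 0.507 and 0.382 in cKO, against 0.162, 0.197 and 0.209 in WT. Bmpr1b was higher and Acvr1 lower in cKO, both without overlap, so this separation was fixed in advance. The exact permutation p (0.1, the smallest possible) adds no support. Acvr1b, the activin type I receptor, was the most abundant type I receptor gene, at 33.8 ± 0.733 FPKM in cKO and 33.7 ± 3.70 FPKM in WT (SD, n = 3 each). The 95% interval of its log2 change was −0.17 to 0.19. Tgfbr1, the TGF-beta type I receptor, was at 20.7, 21.04 and 22.1 FPKM in cKO, against 21.8, 24.8 and 27.2 FPKM in WT (limma adjusted p = 0.126), and cKO 3 lay above WT 1. Acvr1c, a type I receptor for activin B and Nodal, was at 0.605 to 0.840 FPKM in cKO and 0.871 to 0.978 FPKM in WT, with no overlap, and did not pass. Acvrl1, known from endothelium, was at 1.20 to 1.71 FPKM in cKO and 0.970 to 1.45 FPKM in WT and did not pass.

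None of the 4 type II receptors passed in limma, although 3 had an unadjusted p under 0.05 and limma-voom on the recovered reads called 1, Tgfbr2. Acvr2a, an activin and BMP type II receptor, was at 32.4, 30.5 and 30.9 FPKM in cKO, against 37.5, 37.7 and 32.6 FPKM in WT, with no overlap (limma adjusted p = 0.0970). It was called lower without WT 3 (adjusted p = 0.0209) and with a correction for exon length (0.0463), and another gene overlaps 7.84% of its exons. Its paralog Acvr2b lay on the other side, at 7.16, 6.88 and 6.42 FPKM in cKO against 5.87, 5.97 and 5.20 FPKM in WT (limma adjusted p = 0.0756). Bmpr2, the BMP type II receptor, was at 18.2 ± 0.441 FPKM in cKO and 17.4 ± 2.88 FPKM in WT, and Tgfbr2 at 0.869 ± 0.0918 FPKM in cKO and 1.20 ± 0.0691 FPKM in WT (SD, n = 3 each; limma adjusted p = 0.0669). Tgfbr2 was called lower with the reads recovered from the FPKM values and with a correction for exon length (adjusted p = 0.0263 and 0.0379). The co-receptor Tgfbr3 and the pseudoreceptor Bambi were below 1 FPKM in each library and did not pass, although Tgfbr3 was called lower without WT 2 (adjusted p = 0.0331).

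Of the 6 receptor-regulated and common Smad genes, which carry the signal to the nucleus, Smad1 rose and 5 did not pass. Smad1 was at 11.7, 11.4 and 11.5 FPKM in cKO, against 8.92, 10.5 and 9.31 FPKM in WT. The cKO libraries were close together and above all WT libraries (1.20-fold higher, log2 change 0.25, limma adjusted p = 0.0470). The call was lost without WT 1, WT 3, cKO 1, cKO 2 or cKO 3 (at most 0.167, without WT 1) and, with all 6 libraries, with sex as a term (0.0688), a correction for exon length (0.0639), quantile normalization (0.0532) or neither trend nor robust moderation (0.0557).

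Smad5, the most abundant Smad of the BMP branch, was at 23.4, 25.9 and 23.9 FPKM in cKO, against 21.1, 22.7 and 21.7 FPKM in WT (limma adjusted p = 0.133). Smad9 was low, at 0.225 to 0.362 FPKM in cKO and 0.270 to 0.329 FPKM in WT. In the activin and TGF-beta branch, Smad2 was at 20.0, 19.6 and 18.3 FPKM in cKO, against 15.8, 18.2 and 14.9 FPKM in WT (limma adjusted p = 0.0742), and Smad3 was at 5.73, 5.53 and 4.80 FPKM in cKO, against 3.83, 5.17 and 3.70 FPKM in WT (limma adjusted p = 0.111). Both were called higher without WT 2 (adjusted p = 0.0175 and 0.0155) and, with all 6 libraries, by limma-voom on the recovered reads (0.0234 and 0.0414). Smad4, the common partner, was the most abundant Smad gene, at 31.0 ± 0.387 FPKM in cKO and 30.4 ± 3.92 FPKM in WT (SD, n = 3 each), with a 95% interval of the log2 change of −0.16 to 0.23.

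The inhibitory Smads, which are induced by the pathway and dampen it, did not pass, although 1 of the 2 had an unadjusted p under 0.05. Smad6 was at 0.778, 0.745 and 0.754 FPKM in cKO, against 0.323, 0.664 and 0.346 FPKM in WT. WT 2 was well above the other two WT libraries, and Smad6 was called higher without it (limma adjusted p = 0.00594, against 0.0558 with all libraries) and by limma-voom on the recovered reads (0.0342). Smad7 was at 3.63, 3.14 and 3.77 FPKM in cKO, against 2.80, 3.21 and 3.44 FPKM in WT. The ligases Smurf1 and Smurf2, which mark Smads and receptors for degradation, had no overlap between groups and did not pass in limma or in limma-voom, with an unadjusted p under 0.05 for both. Smurf1 was at 15.3 to 16.3 FPKM in cKO and 13.2 to 14.2 FPKM in WT, and Smurf2 at 15.6 to 16.4 FPKM in cKO and 13.3 to 15.3 FPKM in WT (limma adjusted p = 0.0813 and 0.139). The name rule also took Bmp1, a metalloprotease that cleaves chordin and procollagens, and Bmp2k, a kinase named for its induction by BMP2, and neither passed (limma adjusted p = 0.207 and 0.0790). Bmp2k was called lower by limma-voom on the recovered reads (0.0328) and without trend and robust moderation (0.0492).

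Seen by role, the summed level of the secreted antagonists and follistatin relatives was 27.8 to 31.9 FPKM in cKO, against 39.3 to 43.1 FPKM in WT. Within it, Fst had means of 0.404 FPKM in cKO and 7.07 FPKM in WT, and Fstl1 of 11.5 and 16.2 FPKM. Of the 8 genes, 5 had a log2 change below 0 and 3 above 0, Nog among the latter. The summed level of the activin subunits was 11.02 to 14.3 FPKM in cKO, against 16.1 to 17.6 FPKM in WT. That of the BMP and GDF ligands was 14.0 to 15.6 FPKM in cKO, against 16.9 to 19.4 FPKM in WT. Within this ligand sum, Gdf10 alone had means of 1.04 FPKM in cKO and 6.63 FPKM in WT, whereas Bmp3 rose. The log2 change was below 0 in 4 of these ligands and above 0 in 3, with a median of −0.065. The sums were higher in every cKO library for the latency proteins, at 12.6 to 15.01 FPKM in cKO and 10.4 to 11.1 FPKM in WT, and for the Smurf ligases, at 31.4 to 32.0 FPKM in cKO and 27.2 to 29.4 FPKM in WT. The sum of the inhibitory Smads was 3.89 to 4.52 FPKM in cKO and 3.13 to 3.88 FPKM in WT, with the groups almost touching. The summed TGF-beta ligands were at 5.74 to 6.32 FPKM in cKO and 6.43 to 7.70 FPKM in WT. The summed type II receptors overlapped, at 56.7 to 58.1 FPKM in cKO and 53.2 to 64.9 FPKM in WT, as did the receptor-regulated and common Smads, at 89.3 to 94.0 FPKM in cKO and 75.8 to 90.3 FPKM in WT. The summed type I receptors were at 83.0 to 84.0 FPKM in cKO and 89.1 to 95.4 FPKM in WT. Of the 10 members with a mean below 1 FPKM over the 6 libraries, Bmp2 and Fstl4 were called.

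Other genes of the pathway, from lists drawn up with these roles in mind, showed calls outside the cell and among targets but none among intracellular modulators. Of 57 listed genes that are not members, 6 were called higher and 9 lower (26.3%, against 15.8% of all genes), and the median log2 change was −0.066. Among 25 extracellular modulators, 5 rose and 6 fell. Nbl1, a secreted BMP antagonist, was at 7.48, 6.36 and 5.90 FPKM in cKO, against 3.4, 3.69 and 4.16 FPKM in WT (limma adjusted p = 0.00173). Itgb8, an integrin subunit that activates latent TGF-beta, was at 9.17, 10.2 and 10.7 FPKM in cKO, against 7.05, 6.76 and 6.27 FPKM in WT (limma adjusted p = 0.00208). Htra1, a secreted protease, was at 3.07, 3.66 and 3.42 FPKM in cKO, against 4.94, 5.35 and 5.23 FPKM in WT (limma adjusted p = 0.00347), and Crim1, a BMP-binding membrane protein, at 24.7, 21.6 and 23.5 FPKM in cKO, against 18.3, 16.9 and 15.7 FPKM in WT (limma adjusted p = 0.00480). In all 4 genes the groups were separate, and their calls held without each library in turn.

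The remaining called modulators were low or close to the threshold. Tll1 and Vwc2 rose and Tll2, Pcsk6, Vwc2l, Sostdc1 and Fbn2 fell. The call of Vwc2 was lost without any 1 of the 6 libraries and that of Tll1 without any but WT 2, and their adjusted p reached 0.168 and 0.158 without WT 1. That of Sostdc1 was lost without WT 1, WT 3, cKO 1 or cKO 2 and that of Fbn2 without WT 1, WT 3, cKO 2 or cKO 3, and their adjusted p reached 0.127 and 0.122 without cKO 2. Those of Vwc2l and Pcsk6 were lost without cKO 2 (0.0534 and 0.0553). Tll2, at 0.11 to 0.203 FPKM in cKO and 0.346 to 0.496 FPKM in WT, kept its call without each library in turn. Its limma adjusted p was 0.0088, and at most 0.0418, without cKO 1. Of 5 further ligands and co-receptors, Rgma, a BMP co-receptor, rose to 37.8, 34.7 and 33.7 FPKM in cKO, against 29.1, 26.2 and 21.6 FPKM in WT (limma adjusted p = 0.0128, and 0.0588 without cKO 1). None of 19 intracellular modulators passed in limma or limma-voom, and 1 had an unadjusted p under 0.05.

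Of 11 listed target genes that are not members, 3 fell, none rose and 8 did not pass. The target list also held the members Nog, Smad6, Smad7 and Bambi, which are left out of this count. Their log2 changes were 0.42, 0.29, 0.12 and 0.12, and of these members only Nog was called (higher). The Id genes encode inhibitors of basic helix-loop-helix factors and are classical BMP targets. Id2 was at 30.7, 36.1 and 41.0 FPKM in cKO, against 311, 252 and 376 FPKM in WT, and Id3 at 5.36, 4.82 and 5.93 FPKM in cKO, against 12.1, 10.3 and 10.4 FPKM in WT (limma adjusted p = 2.93e-06 and 0.000178). Id1, which was at 6.45, 6.63 and 7.22 FPKM in cKO, against 7.51, 9.25 and 7.17 FPKM in WT, did not pass (limma adjusted p = 0.166), and the groups overlapped. Id4 did not pass either, at 11.4, 15.4 and 15.8 FPKM in cKO, against 17.2, 16.0 and 15.5 FPKM in WT (limma adjusted p = 0.242). The third target called lower, Atoh8, was at 0.103 to 0.253 FPKM in cKO and 0.374 to 0.613 FPKM in WT (limma adjusted p = 0.0159). Its call was lost without WT 1, cKO 2 or cKO 3 (up to 0.0583, without cKO 2).

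**Figure D4:**
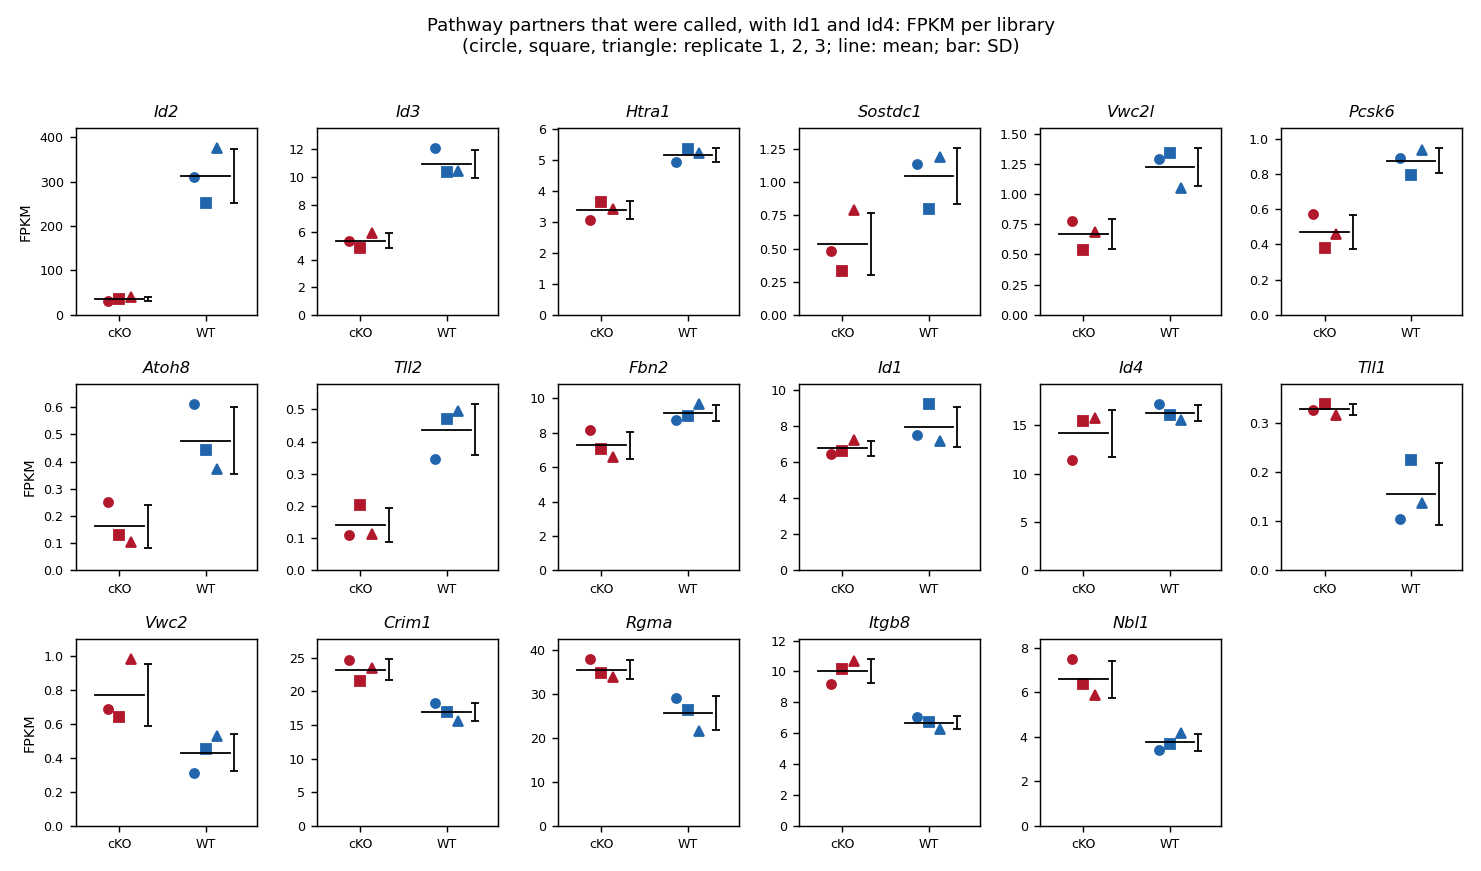
FPKM in each of the 3 cKO and 3 WT libraries for the 15 called pathway genes outside the member list, with Id1 and Id4 shown beside them although they were not called; lines are means, bars SD, and all axes start at 0. Id2 lies at 30.7 to 41.0 FPKM in cKO and 252 to 376 FPKM in WT, whereas Id1 and Id4 overlap.

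Several cell type marker lists moved with these results. All 9 listed astrocyte markers fell, with a summed level of 65.1 to 84.2 FPKM in cKO and 115 to 148 FPKM in WT. Of 11 upper-layer neuron markers, which include Inhba, 6 fell and 1 rose (312 to 315 FPKM in cKO, 348 to 375 FPKM in WT), and of 10 deep-layer markers 5 fell (248 to 256 FPKM in cKO, 301 to 322 FPKM in WT). Within the deep-layer sum, Rprm alone had means of 36.9 FPKM in cKO and 78.7 FPKM in WT. Bcl11b, Fezf2, Tle4 and Ldb2 of the deep-layer list overlapped between the groups and were not called. Of 11 microglia markers 6 fell, with 18.2 to 26.8 FPKM in cKO and 31.1 to 36.5 FPKM in WT. Of 10 radial glia markers 3 fell, with 414 to 524 FPKM in cKO and 635 to 667 FPKM in WT. Most of that sum was Fabp7, with means of 312 FPKM in cKO and 454 FPKM in WT. The median log2 change of the radial glia list was −0.092, and Pax6 and Hes1 were above WT in every cKO library without passing. Of 8 oligodendrocyte lineage markers 3 fell, with 63.8 to 72.6 FPKM in cKO and 83.3 to 92.2 FPKM in WT. Of 11 interneuron markers 5 fell, although the sums overlapped, at 204 to 221 FPKM in cKO and 207 to 233 FPKM in WT. Of 6 intermediate progenitor markers 3 rose, with overlapping sums of 45.5 to 64.8 FPKM in cKO and 45.9 to 51.8 FPKM in WT. Of 8 markers of dividing cells 6 rose, with 43.6 to 56.1 FPKM in cKO and 35.8 to 41.7 FPKM in WT. The part of these shifts in the levels of the pathway genes was not tested.

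The meninges and choroid plexus, which lie next to the cortex and secrete BMPs, were looked for by their markers. None of 6 meningeal fibroblast markers was called in limma or limma-voom or had an unadjusted p under 0.05 (0 of 6), and their summed level was 6.44 to 8.06 FPKM in cKO and 7.40 to 8.25 FPKM in WT. Of 8 choroid plexus markers only Ttr and Sostdc1 were listed. Ttr was at 0.911 to 2.55 FPKM in cKO and 1.13 to 1.37 FPKM in WT and was not called. Sostdc1, a secreted BMP and Wnt antagonist, was called lower, at 0.329 to 0.788 FPKM in cKO and 0.802 to 1.19 FPKM in WT (limma adjusted p = 0.0371). None of 8 endothelial and 5 mural markers was called in limma or limma-voom, and 2 and 1 of them had an unadjusted p under 0.05. The part of these tissues in the results was not tested.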

How the data were processed

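The authors deposited FPKM values for 6 libraries in 1 table, whose title line names the unit. The submitters' processing notes list bcl2fastq 1.8.4, STAR 2.5.4b, featureCounts 1.6.1, R 3.4.1 and DESeq2 1.22.1, with the build mm10. The sources used here do not give the annotation release, the strand setting or any low-value filter. Without strand, reads of overlapping genes cannot be separated. The table listed 15703 genes after 139 blank lines were left out, and 15661 matched GENCODE M21 by identifier, which supplied coordinates and exon lengths. Depth was recovered by finding the library size at which low genes (at most 50 reads, exons under 3000 bases) gave whole reads: at that size 94.8% to 96.0% of their values fell no more than 0.1 from a whole number, compared with a median of 19.7% to 20.0% over other sizes. These reads are approximate, and in each library they summed to more than the recovered library size.

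limma 3.58.1 in R 4.3.3, with trend and robust moderation, was fitted on log2(FPKM + 1) over all genes, with genotype as the only term, and tested on simulated data. Summaries were made in Python with pandas 2.3.3 and scipy 1.17.1. Each limma p-value sets the group difference against the spread between these libraries, moderated toward a trend over all genes. The members and lists were chosen with earlier results of these data known. Every called member was named with its values, with the most abundant member of each role and, where none was called, that with the smallest p, and from each partner list up to 4 called genes with the smallest p, beside Id1 to Id4 and Tcf4. Further members and partners were named to account for each role. Alternatives were other pseudocounts (0.1 and 0.5), a filter at a mean of 1 FPKM, other scalings, neither trend nor robust moderation, voom on recovered reads, a replicate block, each library left out and, chosen after seeing the data, an exon length correction and sex as a term.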

Additional observations from a re-analysis of the deposited data

How the results depend on the processing

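With 1 library left out, 1 (without cKO 1) to 8 (without WT 2) members were called higher, 2 without cKO 2, WT 1 or WT 3 and 3 without cKO 3, 6 (without cKO 1) to 10 were called lower, and 3 (without cKO 1) to 7 partners were called higher and 4 (without cKO 2) to 10 lower. Limma-voom on recovered reads called 21 members, 9 of them higher. For the counts in this paragraph, the share of all genes called in the same setting was not determined. With the filter at a mean of 1 FPKM, which tests fewer genes, 4 partners were called lower. With the replicate block, 6 members were called higher and 10 lower, and Smad1 had an adjusted p of 0.0539. Deviations from the group means correlated at −0.046, 0.10 and −0.048 for replicates 1, 2 and 3. These values gave no sign that the replicate numbers pair the libraries, but with 3 libraries per group they cannot exclude it. Of the 15 called members, 14 kept their calls in every setting with all 6 libraries that tested them, the exception being Smad1. Of the 34 other members, 7 were called in at least 1 of these settings. Members that changed sign were never called. With exon length correction, the log2 change was −0.0012 for Acvr1b, −0.0030 for Bmpr2, −0.014 for Fstl5 and −0.036 for Ltbp2, and with quantile normalization 0.0053 for Bmper and 0.0048 for Smad9. With 1 library left out, it ranged from −0.082 to 0.065 for Acvr1b, −0.075 to 0.045 for Bmper, −0.055 to 0.17 for Bmpr2, −0.035 to 0.13 for Fstl5, −0.15 to 0.027 for Gdf9, −0.018 to 0.13 for Ltbp1, −0.0021 to 0.026 for Ltbp2, −0.069 to 0.11 for Smad4, −0.064 to 0.013 for Smad9 and −0.065 to 0.0029 for Tgfb1. The cause was not tested. Depth limits Bmp2 most.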
